A study of Homo sapiens with 20 samples.

Results

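MEIS1 and PBX3 are TALE homeodomain proteins, the family of DNA-binding cofactors that work beside the HOX proteins. Their transcripts were followed in human cell lines of T-ALL, a leukemia of immature T cells, with and without inhibition of NOTCH signalling. They were studied beside 6 genes of the HOXA cluster, HOXA3, HOXA5, HOXA7, HOXA9, HOXA10 and HOXA11, as the HOXA cluster and its cofactors. A probe set was counted for a member where the platform annotation named that gene and no other. By this rule 2 of the 8 members had a named probe set, MEIS1 and PBX3, 1 each among 22277 probe sets. The 6 HOXA genes were not analysed here.

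Each line gave 1 Affymetrix 3′ expression array after vehicle (DMSO) and 1 after CompE, a gamma-secretase inhibitor, at 100 nM for 72 h, which makes 20 arrays. Gamma-secretase is the membrane protease that releases the active part of NOTCH receptors. RPMI8402, PF382, P12-ICHIKAWA, MOLT3, KOPTK1, HPB-ALL, DND41, CUTLL1, CCRF-CEM and ALL-SIL were used, all with activating NOTCH1 mutations per the series' description. The lines are the replicates for the CompE change. Since nothing in the labels tells of separate cultures, p-values of that change cover no more than the spread among these 10 lines. In the test for differences between lines, the DMSO and CompE arrays of a line stand in as its replicates. The error of that test is the scatter left after line and treatment, which includes any difference between lines in the response to CompE. Its p-values do not cover repeat cultures of a line.

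HOX proteins recognise short and similar DNA sites, and they gain specificity by binding next to PBX proteins, with MEIS proteins often in the same complex. In blood cells HOXA9 and MEIS1 are high in stem and progenitor cells and fall as cells mature, and MEIS1 is a well-known partner of HOXA9 in leukemia. PBX3 is the PBX family member most often named beside them. Within T-ALL, raised HOXA genes mark a subgroup of cases, which arises for instance through fusions of MLL or of MLLT10, or through rearrangement of the cluster itself.

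Signals are MAS5 intensities on a linear scale, which the authors had scaled so that the mean of an array, trimmed by 2% at both ends, was 250. Array medians lay between 54.8 and 74.9. All 9 T-cell marker genes had a tested probe set, and the summed signal of their 11 probe sets lay between 9896 and 25979 on the 20 arrays. Of these 11, 1 rose under CompE (LCK, by 0.26 on the log2 scale; limma adjusted p = 0.0303, higher in 10 of 10 lines) and 1 fell (CD3G, by 0.54; adjusted p = 0.0356, lower in 9). The other LCK probe set changed by 0.12 (limma adjusted p = 0.540, higher in 7 of 10 lines). Of all tested probe sets 5.25% passed in either direction. Summed signals were 167 to 2670 for the B-cell markers, whose top rested on CD79A in DND41, and 44.2 to 115 for the myeloid markers. They were 143 to 948 for erythroid, 60.1 to 277 for epithelial and 120 to 410 for fibroblast markers. Tested were 2 of 10 B-cell, 0 of 6 myeloid, 3 of 9 erythroid, 2 of 6 epithelial and 1 of 11 fibroblast probe sets. Of these, 0 passed the test for a CompE change, and so few tested probe sets can show little. The NOTCH targets HES1 and MYC were lower under CompE by log2 changes of -1.71 (limma adjusted p = 0.0125, lower in 10 of 10 lines) and -1.50 (adjusted p = 0.0162, lower in 9 of 10). Fewer cells of a kind and less RNA per cell cannot be told apart in such bulk samples.

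The 250 bases before the start of each gene are shown as stretches where RBPJ, the DNA-binding partner of NOTCH, or HOX and TALE proteins could bind. They are from RefSeq (GRCh38.p14), on the plus strand, with motif matches in capitals. The MEIS1 window lies at chr2:66434875-66435124 and the PBX3 window at chr9:125747933-125748182.
MEIS1: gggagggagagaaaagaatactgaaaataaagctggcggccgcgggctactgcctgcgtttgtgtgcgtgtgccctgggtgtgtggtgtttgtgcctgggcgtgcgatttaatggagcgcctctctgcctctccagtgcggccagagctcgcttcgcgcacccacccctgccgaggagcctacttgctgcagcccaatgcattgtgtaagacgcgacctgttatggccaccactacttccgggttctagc
PBX3: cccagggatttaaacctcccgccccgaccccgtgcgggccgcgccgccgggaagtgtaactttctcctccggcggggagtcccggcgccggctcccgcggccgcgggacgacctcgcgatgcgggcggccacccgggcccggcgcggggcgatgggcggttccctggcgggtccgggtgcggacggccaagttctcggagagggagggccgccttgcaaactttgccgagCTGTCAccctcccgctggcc

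On both strands 3 motifs were searched. They were the core of the NOTCH partner RBPJ (TGGGAA), the MEIS core (TGACAG) and the composite site of PBX with HOX (TGATNNAT). The MEIS1 window held 0 matches. The PBX3 window held 1 match, a MEIS core on the minus strand, which reads CTGTCA on the strand printed and lies 20 bases before the start. Among 35116 RefSeq promoters of the same length, 20.85% held the RBPJ core, 13.03% the MEIS core and 6.473% the composite site. A match describes letters and is no sign of binding. The share of C and G was 59.6% in the MEIS1 window and 75.6% in the PBX3 window. In the same build the MEIS1 gene spans chr2:66435125-66573869 and the PBX3 gene chr9:125747373-125967377, so the PBX3 window lies inside the annotated gene, before the start that the promoter table takes for it.

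PBX3, which binds DNA beside HOX proteins, had a signal above 100 on 19 of 20 arrays. The mean signal of PBX3 was 226 ± 108 (SD, n = 10 lines) in DMSO and 219 ± 158 (SD, n = 10) in CompE. Its medians were 201.0 and 175.6. HPB-ALL stood above the rest, with a PBX3 signal of 523.0 in DMSO and 651.3 in CompE. The line mean of 587 in HPB-ALL was 2.60 times that of PF382, the next line, and 4.82 times that of KOPTK1, the lowest.

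Line means of PBX3 in the other 9 lines ran from 122 in KOPTK1 to 226 in PF382. PBX3 signals of the other lines in DMSO were 221.8 in PF382, 219.9 in DND41, 192.2 in P12-ICHIKAWA, 235.7 in CUTLL1, 209.9 in ALL-SIL, 182.2 in CCRF-CEM, 173.5 in MOLT3, 144.8 in RPMI8402 and 159.6 in KOPTK1. In CompE, in the same order of lines, PBX3 signals were 230.7, 217.7, 218.6, 134.6, 138.2, 165.2, 168.5, 182.6 and 83.8. Both arrays of HPB-ALL were above all 18 arrays of the other lines. In the order of line means, 7 of 9 pairs of neighbouring lines overlapped in their signals, and the gap between PF382 and DND41 that did not overlap was 1.95 signal units.

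On its array PBX3 ranked above 83.1% of probe sets in DMSO and 86.6% in CompE in HPB-ALL, against 54.9% to 71.0% on the arrays of the other lines. In limma's F-test for differences between lines PBX3 passed (adjusted p = 6.31e-04), as did 80.3% of all 12265 probe sets tested, so passing sets it apart from few others. Line accounted for 87.0% of the sum of squares of PBX3 on the log2(signal + 16) scale, treatment for 1.56% and the remainder for 11.5%. The medians over all tested probe sets were 81.3%, 2.15% and 13.7%. The SD of its line means was 0.57 on that scale, which was larger than in 66.1% of tested probe sets. Without HPB-ALL the adjusted p of the PBX3 line differences was 0.214, so the difference between lines rested on that line.

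**Figure D1:**
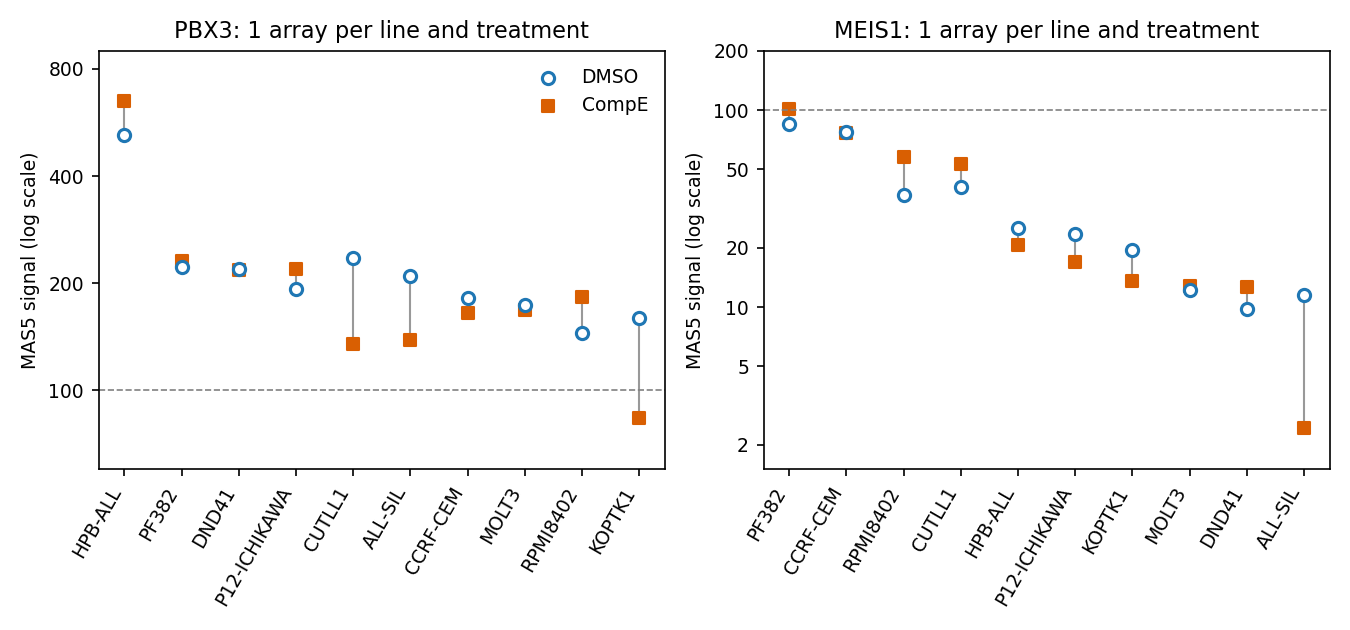
MAS5 signal (log axis) of PBX3 and MEIS1 in the 10 lines, with 1 array per line in DMSO (open circles) and 1 in CompE (filled squares). PBX3 is at 523.0 and 651.3 in HPB-ALL and between 83.8 and 235.7 in all other lines, whereas MEIS1 is highest in PF382 and CCRF-CEM and exceeds 100 on 1 array.

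MEIS1, the partner of HOXA9 in progenitor cells and leukemia, was dim in these lines. Its signal exceeded 100 on 1 of 20 arrays, PF382 in CompE at 101.3. The mean MEIS1 signal was 34.1 ± 26.8 (SD, n = 10 lines) in DMSO and 36.8 ± 33.3 (SD, n = 10) in CompE. MAS5 values this low are noisy, and detection calls were not used here.

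The order of lines differed from that of PBX3. MEIS1 signals were highest in PF382 (84.7 in DMSO and 101.3 in CompE) and CCRF-CEM (77.3 and 76.5). RPMI8402 followed with 37.2 and 58.0, and CUTLL1 with 40.6 and 53.0. No array of the remaining 6 lines reached the signals of these 4 lines. HPB-ALL, the line with most PBX3, had MEIS1 signals of 25.1 in DMSO and 20.6 in CompE, and P12-ICHIKAWA had 23.5 and 16.9. MEIS1 was 19.4 and 13.6 in KOPTK1, 12.3 and 12.9 in MOLT3, 9.77 and 12.7 in DND41, and 11.5 and 2.43 in ALL-SIL. Even in PF382, MEIS1 ranked only above 54.1% and 56.1% of probe sets of its arrays.

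Line means of MEIS1 ranged from 6.98 in ALL-SIL, where the 2 arrays differed widely at signals near the floor, to 93.0 in PF382. In the order of line means, 5 of 9 neighbouring pairs overlapped. The gaps that separated neighbours were 7.34 signal units below PF382, 18.6 below CCRF-CEM, 15.4 below CUTLL1 and 0.712 below KOPTK1, and the last is too small to order lines at such low signals. Since no line mean was above 100, MEIS1 did not pass the filter on signal and was not among the tested probe sets. In a fit of all 22215 probe sets without that filter, MEIS1 differed between lines in limma's F-test (adjusted p = 1.05e-04), as did 49.2% of probe sets. Leaving out each line in turn gave adjusted p between 1.10e-04 and 8.58e-04, and leaving out both CCRF-CEM and PF382 gave 0.0115. These 2 kinds of refit without the filter were chosen after the data were seen.

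Over the lines MEIS1 and PBX3 showed little correlation. Pearson's r of their line means was 0.02 and Spearman's rho 0.25 (n = 10 lines, each the mean of 2 arrays, given as a description). The r was not taken without HPB-ALL, which lay far above the other lines in PBX3. No line mean of MEIS1 was above 100, so a low correlation cannot be read as a lack of relation. PBX3-DT, a divergent transcript that starts near PBX3 (chr9:125743754-125745929), was at most 32.0 on any array, and its r with PBX3 was -0.01.

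CompE did not change PBX3 past the threshold. The paired log2 change of PBX3 was -0.14 ± 0.13 (SE, n = 10 lines; 95% interval -0.42 to 0.13) on the log2(signal + 16) scale, with a limma adjusted p of 0.521. Of the tested probe sets, 5.25% passed this test (298 higher and 346 lower under CompE), with a median change of 0.02 over all tested probe sets, and 0 of the 1 tested member probe set did. The interval still allows a fall or a rise of those sizes. An exact sign-flip permutation test over the 10 lines gave p = 0.291 for PBX3, two-sided, where the smallest possible p is 0.00195.

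The lines moved in both directions. PBX3 was lower under CompE in 6 lines and higher in 4. The log2 changes were -0.82 in KOPTK1, -0.74 in CUTLL1, -0.55 in ALL-SIL, -0.13 in CCRF-CEM, -0.04 in MOLT3 and -0.01 in DND41. They were 0.05 in PF382, 0.17 in P12-ICHIKAWA, 0.30 in RPMI8402 and 0.31 in HPB-ALL. In all 10 lines the change of PBX3 lay within the central 95% of changes of probe sets above 100 in that line. It was near the low edge in some. Of those probe sets, 2.97% had a lower change in CUTLL1, 3.92% in ALL-SIL and 8.88% in KOPTK1. In the other lines the share was 28.3% to 77.5%. With 1 array per line and treatment, no single line's change has a replicate check. The SD of the changes was 0.41, and 9 of 10 lines had both arrays above 100, all but KOPTK1.

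**Figure D2:**
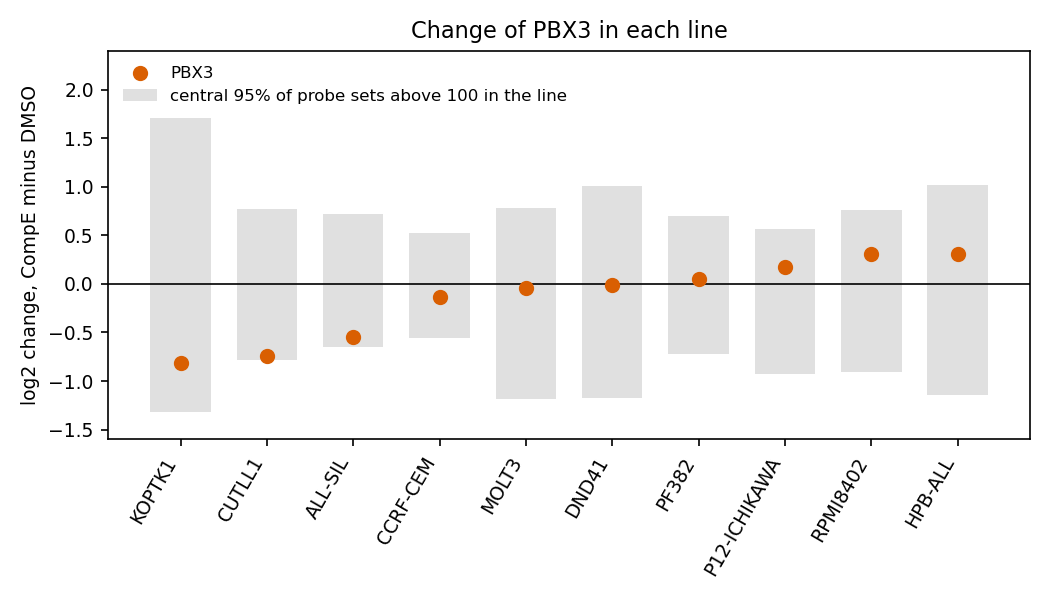
Log2 change of PBX3, CompE minus DMSO on the log2(signal + 16) scale, in each line (points), with a grey bar for the central 95% of changes of probe sets whose signal was above 100 in that line. All 10 points lie inside their bars, from -0.82 in KOPTK1 to 0.31 in HPB-ALL, and the bar of KOPTK1, from -1.32 to 1.71, is the widest.

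KOPTK1, the line with the largest fall of PBX3, also stood apart in a measure of RNA quality. Its ratio of 3′ to 5′ ACTB signal was 3.32 in DMSO and 9.76 in CompE, a log2 change of 1.56, against changes of -0.05 to 0.54 in the other lines. With that log2 ratio as a covariate the change of PBX3 was -0.04 ± 0.15 (SE; limma adjusted p = 0.909). Without KOPTK1 it was -0.07 (adjusted p = 0.723). It moved about as far, to -0.08 (adjusted p = 0.764), without CUTLL1, whose log2 ACTB change was 0.09. With each array centred on its median it was -0.22 (adjusted p = 0.336), and over all alternatives run the adjusted p lay between 0.336 and 0.9998. The part of RNA quality in the KOPTK1 value was not tested.

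MEIS1 showed no common direction under CompE. Its log2 change averaged -0.01 (SD 0.31, n = 10 lines), lower in 5 lines and higher in 5, from -0.58 in ALL-SIL to 0.48 in RPMI8402. An exact sign-flip permutation test over the 10 lines gave p = 0.912. In the fit without a filter on signal, the change was -0.01 ± 0.14 (SE; 95% interval -0.31 to 0.29; limma adjusted p = 0.976), and 1.71% of all probe sets passed there. The value in each line is not read as a change, because no line mean was above 100.

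The genes with the most similar profile over the 10 line means are given as a description, with Pearson's r among 7263 genes for MEIS1 and 7262 for PBX3. They share the arrays and their scaling with the members. Since they were picked for the highest r over these lines, the choice favours high r, also with lines left out. For MEIS1 they were the zinc transporter SLC30A9 (r = 0.918), the mitochondrial translation factor GUF1 (0.881), the growth factor FGF9 (0.876) and SPRY2, an inhibitor of growth factor signalling (0.867). Without PF382 and CCRF-CEM, the lines farthest from the median of MEIS1, these r were 0.895, 0.716, 0.710 and 0.670. No line mean of MEIS1 was above 100, where MAS5 values are noisy. SLC30A9 had signals of 468 and 395 in PF382, with a median of 355 and at most 490 on the arrays of the other lines. For PBX3 they were KREMEN2 (0.972), POLR3C, a subunit of RNA polymerase III (0.930), ARHGEF40 (0.929) and the protocadherin PCDH9 (0.921). Without HPB-ALL and KOPTK1 these r were 0.647, 0.161, 0.795 and 0.240, so the likeness of POLR3C and PCDH9 to PBX3 rested on those lines. KREMEN2 and ARHGEF40 entered the genes compared only through HPB-ALL, with at most 54.8 and 41.6 in any other line, so the filter on signal favours their likeness to PBX3. PCDH9 had signals of 3577 and 5778 in HPB-ALL and at most 396.7 in any other line.

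The other genes of the pathway came from lists of HOX genes, TALE cofactors, regulators of the HOXA cluster and genes described as its targets. Genes named from these lists without a call were chosen after their values were seen. Of 9 other TALE cofactor genes, 7 had a named probe set and 5 a tested one (MEIS2, PBX2, PKNOX1, TGIF1 and TGIF2). Of their 10 tested probe sets 0 passed for CompE (5.25% of all tested), with a median change of -0.03. Between lines 7 of the 10 differed, against 80.3% of all tested. MEIS2, a close relative of MEIS1, was highest in HPB-ALL (388 in DMSO and 405 in CompE), CCRF-CEM (263 and 288) and ALL-SIL (194 and 237). MEIS2 was at most 109 on any array of the other 7 lines. In CCRF-CEM both MEIS1 and MEIS2 stood high within their own profiles. In ALL-SIL MEIS1 was at its lowest while MEIS2 stood high.

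**Figure D3:**
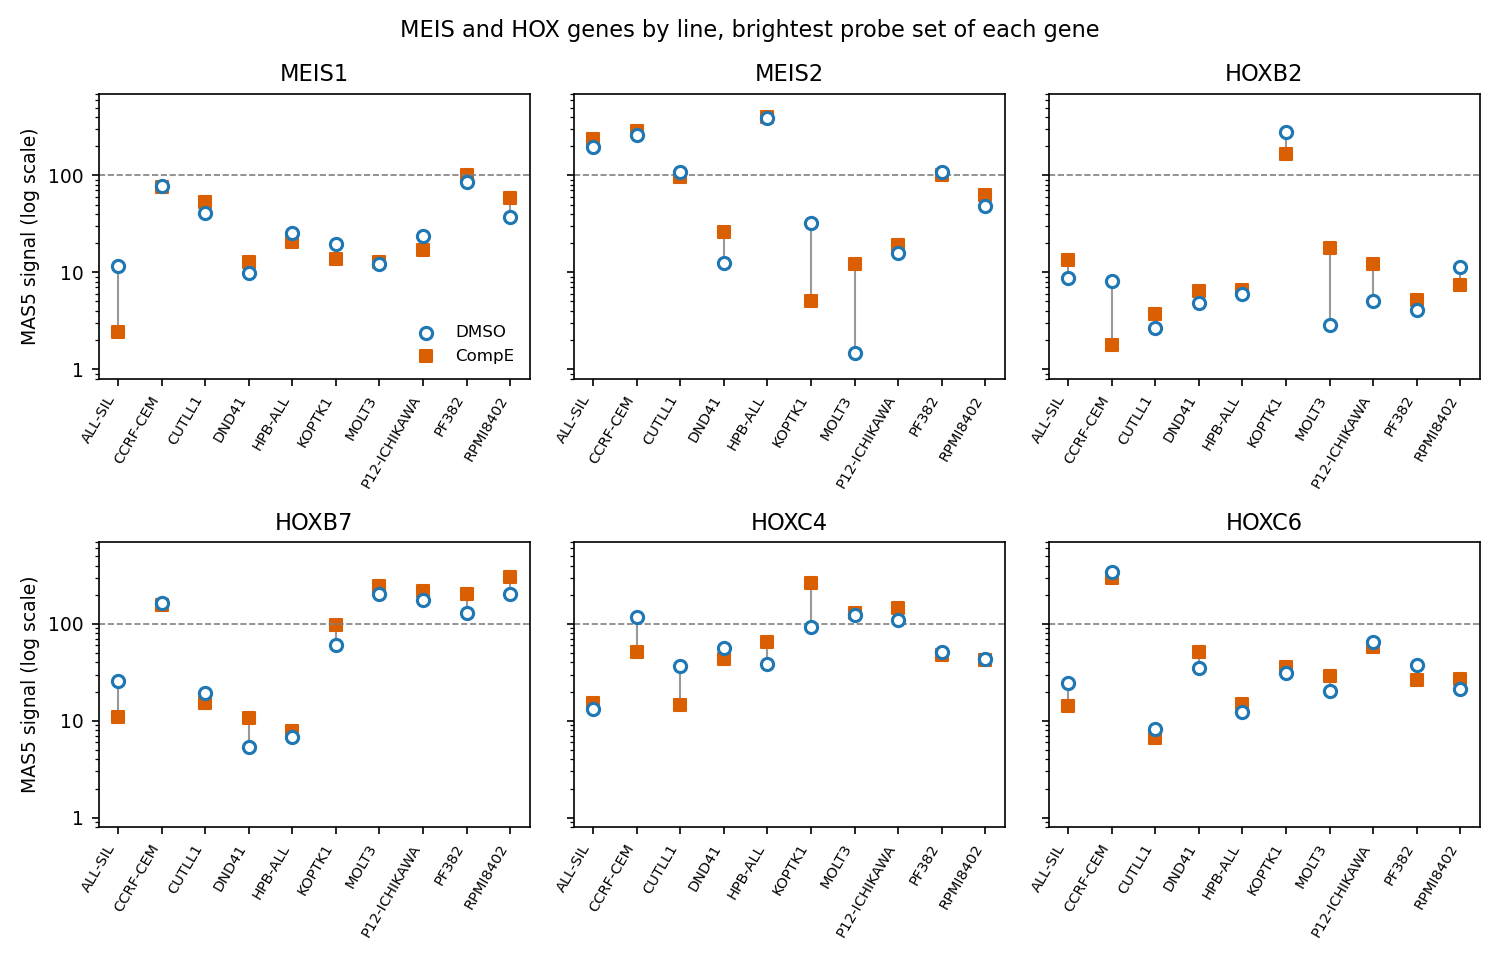
MAS5 signal (log axis) of MEIS and HOX genes in the 10 lines, by the brightest probe set of each gene, with open circles for DMSO and filled squares for CompE (1 array each). HOXB2 stands high only in KOPTK1 (279 and 166) and HOXC6 only in CCRF-CEM (341 and 299), whereas HOXB7 is above 100 on both arrays of 5 lines.

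Few HOX probe sets of the other clusters passed the filter on signal. Of 13 HOXB probe sets 3 were tested (HOXB2 and HOXB7), of 7 HOXC probe sets 2 (HOXC4 and HOXC6) and of 10 HOXD probe sets 0, where no array exceeded 69.7. For CompE 0 of 3 and 0 of 2 passed (median changes 0.18 and 0.01), where 5.25% of all tested probe sets did. HOXB2 and HOXC6 entered the test only through the line in which they were high, so their line differences are given as levels, with no count of calls. HOXB2 had signals of 279 in DMSO and 166 in CompE in KOPTK1 and at most 17.8 elsewhere. HOXC6 had 341 and 299 in CCRF-CEM, the line second in MEIS1, and at most 65.5 elsewhere. By the brightest probe set of HOXB7, both arrays of RPMI8402 (204 and 308), MOLT3 (204 and 248) and P12-ICHIKAWA (176 and 220) were above 100. So were those of PF382 (129 and 204) and CCRF-CEM (165 and 158). In HPB-ALL, where PBX3 was highest, this probe set was at 6.72 and 7.88. The other tested probe set of HOXB7 was above 100 on both arrays in 4 lines. The probe set of HOXB7 that was not tested was at most 76.2 on any array. Of 8 other genes of the HOXA region, 3 had a named probe set, and only SKAP2, next to the cluster, was tested. For CompE 0 of its 3 tested probe sets passed (median change 0.21). By its brightest probe set, line means of SKAP2 ranged from 1.62 in CCRF-CEM to 474 in DND41. DND41 was also highest by the other tested probe sets of SKAP2. The probe set of SKAP2 that was not tested went otherwise, with line means from 34.6 in HPB-ALL to 82.2 in KOPTK1.

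Calls for CompE among regulators of the HOXA cluster stand beside 5.25% of all tested probe sets, and no difference from that share is read from them. Of 30 tested probe sets for MLL, the DOT1L complex and fusion partners that raise HOXA, 0 rose and 1 fell (median change -0.02), and 25 differed between lines, where 80.3% of all tested did. That probe set was MLLT10, a DOT1L partner and fusion gene of T-ALL, with a log2 change of -0.52 ± 0.12 (SE; limma adjusted p = 0.0246), lower in 10 of 10 lines. Its adjusted p was above 0.05 without HPB-ALL or without RPMI8402, up to 0.0664. It passed in 6 of 12 alternatives that kept all lines or left out the 3 lines with another medium label. The line mean of this probe set was above 100 in only 5 of 10 lines. With lines at or under 100 set to missing, its change was -0.51 (limma adjusted p = 0.103). The other tested probe sets of MLLT10 had changes of 0.09 and -0.21. Of 14 tested probe sets for Polycomb repressors, 2 rose and 0 fell (median change 0.16). Both were of EZH1, a histone H3 methyltransferase, with changes of 0.55 ± 0.14 (SE; limma adjusted p = 0.0363) and 0.50 ± 0.12 (adjusted p = 0.0339). The first was past the threshold in 5 and the second in 4 of the 10 fits that left out 1 line, with adjusted p up to 0.0934, and the call of both was lost without ALL-SIL, CUTLL1, DND41, HPB-ALL or RPMI8402, and that of the second also without MOLT3. Among the alternatives of the other kind the first passed in 8 of 13 and the second in 10 of 14. With the log2 ACTB ratio as a covariate both EZH1 calls were lost, at changes of 0.33 (adjusted p = 0.192) and 0.36 (adjusted p = 0.144), and the MLLT10 call was lost at -0.47 (adjusted p = 0.0767). The part of RNA quality in these changes was not tested further.

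Genes described as downstream of HOXA9 and MEIS1 gave 0 rises and 2 falls among 19 tested probe sets (median change 0.10), beside 5.25% of all tested probe sets in either direction. IGF1R, a growth factor receptor that is also a NOTCH1-linked gene of T-ALL, fell by 0.73 ± 0.16 (SE; limma adjusted p = 0.0207), lower in 10 of 10 lines. Without HPB-ALL or without RPMI8402 its adjusted p was above 0.05, up to 0.0579, and it passed in 11 of 13 alternatives of the other kind. The line mean of this probe set was above 100 in 5 of 10 lines. With lines at or under 100 set to missing, its change was -0.72 (limma adjusted p = 0.0409). The second tested probe set of IGF1R changed by -0.69 (adjusted p = 0.131). One probe set of MYB, a transcription factor of blood progenitors, fell by 0.61 ± 0.16 (SE; limma adjusted p = 0.0426), lower in 7 of 10 lines, and passed in 4 of 10 fits that left out a line. This call was lost without CUTLL1, DND41, HPB-ALL, MOLT3, P12-ICHIKAWA or RPMI8402, and it held in 7 of 13 other alternatives. With the log2 ACTB ratio as a covariate the change of this MYB probe set was -0.38 (adjusted p = 0.214), and that of IGF1R was -0.77 (adjusted p = 0.0449). The other probe set of MYB changed by 0.10 (adjusted p = 0.440) and was higher in 9 of 10 lines, so the 2 probe sets of MYB disagree.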

How the data were processed

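Total RNA of 10 T-ALL lines was hybridised to 20 arrays. The authors deposited linear signal intensities from MAS5, as named in the submitters' processing notes. Its version is not given in the sources used here. The authors' scaling was kept. Of 22277 probe sets, 62 controls were left out. The annotation gave 1 gene for 19064 of the rest and several for 1043, and did not list 2108. Symbols are those of the annotation table.

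Values were analysed as log2(signal + 16), so fold changes of dim genes are understated. Probe sets with a line mean above 100 in at least 1 line (12265) entered limma 3.58.1 (R 4.3.3) with the line as a block, an intensity trend and Benjamini-Hochberg adjustment over all of them at 0.05, two-sided. Residual degrees of freedom were 9 and the prior ones 6.70. Arrays were paired by the line in their labels, and for 10 of 10 CompE arrays the closest DMSO array was that of the same line. The same fit gave the F-test between lines.

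The text names all member probe sets, up to 4 called genes of each list and direction, and the 4 genes most like MEIS1 and PBX3. The same rule for HOXA9 and HOXA10 could not be applied. Members, lists and tests were chosen with earlier results of these data known. The DMSO labels of P12-ICHIKAWA, MOLT3 and CCRF-CEM give a different medium from their CompE labels. Its name equals that of the line RPMI8402 and may be an entry error, so an alternative left these lines out. Other alternatives changed the pseudocount, filter, scaling, block, covariate, probe set choice and test. The code was tested on simulated data.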

Additional observations from a re-analysis of the deposited data

Results flagged for a closer look

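The PBX3 signal of HPB-ALL lay apart from the other 9 lines in both treatments. On the log2(signal + 16) scale it was 9.07 in DMSO, where the next line was at 7.98, and its gap to that line was 0.630 of the whole range. In CompE it was 9.38 with the next line at 7.95, a gap of 0.524 of the range. Both exceed Dixon's 95% critical value for 10 samples. In all, 6 distributions were examined, and chance alone marks about 1 in 20. These distributions are not independent, since they were DMSO levels, CompE levels and the changes between them. Both flags are of the same line and gene.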

How the results depend on the processing

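The number of member probe sets past the threshold for CompE was 0 under every alternative run. The paired fit called 644 probe sets in all. Without the replicate block it called 0 (522 at an unadjusted p under 0.05), and the exact sign-flip test called 0 (2841 unadjusted). Without the block, the differences between lines enter the error. No sign-flip p with 10 pairs can be below 0.00195, so adjustment over 12265 probe sets lets calls pass only if many reach that floor. Both settings count among the alternatives in the tallies given for single genes. The count was 380 with no filter on signal and 214 without the 3 lines with another medium label. Leaving out 1 line gave 100 to 1497 calls: 1497 without KOPTK1, 393 without ALL-SIL, 380 without PF382, 350 without MOLT3, 317 without CUTLL1, 170 without DND41, 143 without RPMI8402 and 100 without HPB-ALL. The adjusted p of PBX3 ranged from 0.336 to 0.9998 over the alternatives. Line differences were called for 5962 probe sets with 1 probe set per gene, since only 7263 were then tested. Member probe sets that differed between lines numbered 2 with no filter, and 0 to 1 when 1 line was left out, with 0 without HPB-ALL. The MEIS1 change of -0.01 turned to 0.0167 with a pseudocount of 64, 0.0186 without the 3 lines and 0.0511 with the ACTB ratio, and leaving out 1 line gave -0.0653 to 0.0518. It was -0.142 with a pseudocount of 1, -0.130 with quantile normalization and -0.0829 with median centring. The PBX3 change in PF382 was -0.111 with median centring. Beyond the limits given for the fit without the block and the sign-flip test, the cause of these differences was not tested. Each line has 1 array per treatment, MAS5 signals near 0 are noisy, and the scaling hides any change in total RNA per cell.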
